A study of Arabidopsis thaliana with 6 samples.

Results

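Flowers at stage 5 of *Arabidopsis thaliana* had a small set of abundant genes whose nuclear RNA separated the *AP3*-domain from the *AG*-domain in every library. These genes were chosen by a rule on CPM, the count of a gene scaled to 1000000 counts on nuclear genes of the same library. The lowest CPM of the AP3 libraries had to be at least 10, and at least 2 times the highest CPM of the AG libraries. The rule was met by 38 of 33056 nuclear genes, and 12903 genes reached 10 CPM in every AP3 library. The difference between AP3 and AG is therefore what chose the 38 genes, and their values in that comparison are a description and not evidence for it. All 38 are annotated as protein coding.

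RNA was measured in nuclei sorted for GFP from pooled inflorescences. Every group had the Ler background, the pAP1::AP1-GR transgene for synchronous flowers and the ap1 and cal mutations, and was induced daily with 2 µM dexamethasone. The AP3 group (libraries X13, X16 and X74) carried pAP3:NTF(GFP), in which the *AP3* promoter drives a GFP protein of the nuclear envelope. The AG group (libraries X14, X71 and X26) carried iAG:NTF(GFP), the same protein under the second intron of *AG* joined to a minimal 35S promoter, so each group is only as pure as the activity of its reporter. The labels do not say how many transgenic lines were used or that the libraries came from separate plants, so p-values measure the spread between these libraries.

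In the flower, *AP3* and its partner *PI* specify petals and stamens, while *AG* specifies stamens and carpels and ends the growth of the meristem. The *AP3*-domain thus covers the petal and stamen whorls and the *AG*-domain the stamen and carpel whorls, with stamens common to both. Genes that shape lateral organs, separate them from the meristem, make auxin in young primordia or build the cuticle of the outer cell layer are well known from such tissue.

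The sort was first checked on its own target genes. The *AP3* transcript was at 113, 203 and 255 CPM in X13, X16 and X74, and at 57.3, 43.1 and 12.6 CPM in X14, X71 and X26. *PI* was at 112, 185 and 198 CPM in the AP3 libraries and at 84.3, 61.9 and 23.1 CPM in the AG libraries. For both genes the groups did not overlap, as in 9.18% of genes with at least 10 CPM in every AP3 library. In edgeR's test *AP3* had an adjusted p of 0.0216, and *PI*, with 0.0531, did not pass. The *AG* transcript did not follow the labels, with 37.4, 73.9 and 101 CPM in the AP3 libraries and 37.9, 42.9 and 14.7 CPM in the AG libraries. Its values overlapped between the groups, and it did not pass edgeR's test (adjusted p = 0.141). The libraries are therefore named by their labels throughout. They held 28808948 to 42089156 counts, of which 2.39% to 4.56% fell on organelle genes, and X74 and X71 had a read on more genes (26453 and 26225) than the others (22668 to 23174).

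The 38 genes were sorted by annotated or known roles after they had been chosen, so the groups only order the text. Patterning and other regulators held 15 genes, of which ABI5, AGL15 and the putative AT-hook protein AT5G49700 are not best known from floral patterning, epidermis, wax and lipid 10, hormone and growth signal 5, and sugar and cell wall 3, with 5 others. The ratio of the lowest AP3 CPM to the highest AG CPM, called the gap here, had a median of 2.78 for these regulators, 2.28 for hormone and growth genes and 2.18 for the epidermal genes. The ratio of the group means had a median of 4.26 over the 38 genes and ran from 2.58 to 11.8. In RNA of pooled nuclei, more cells of a type and more RNA per cell cannot be told apart.

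**Figure D1:**
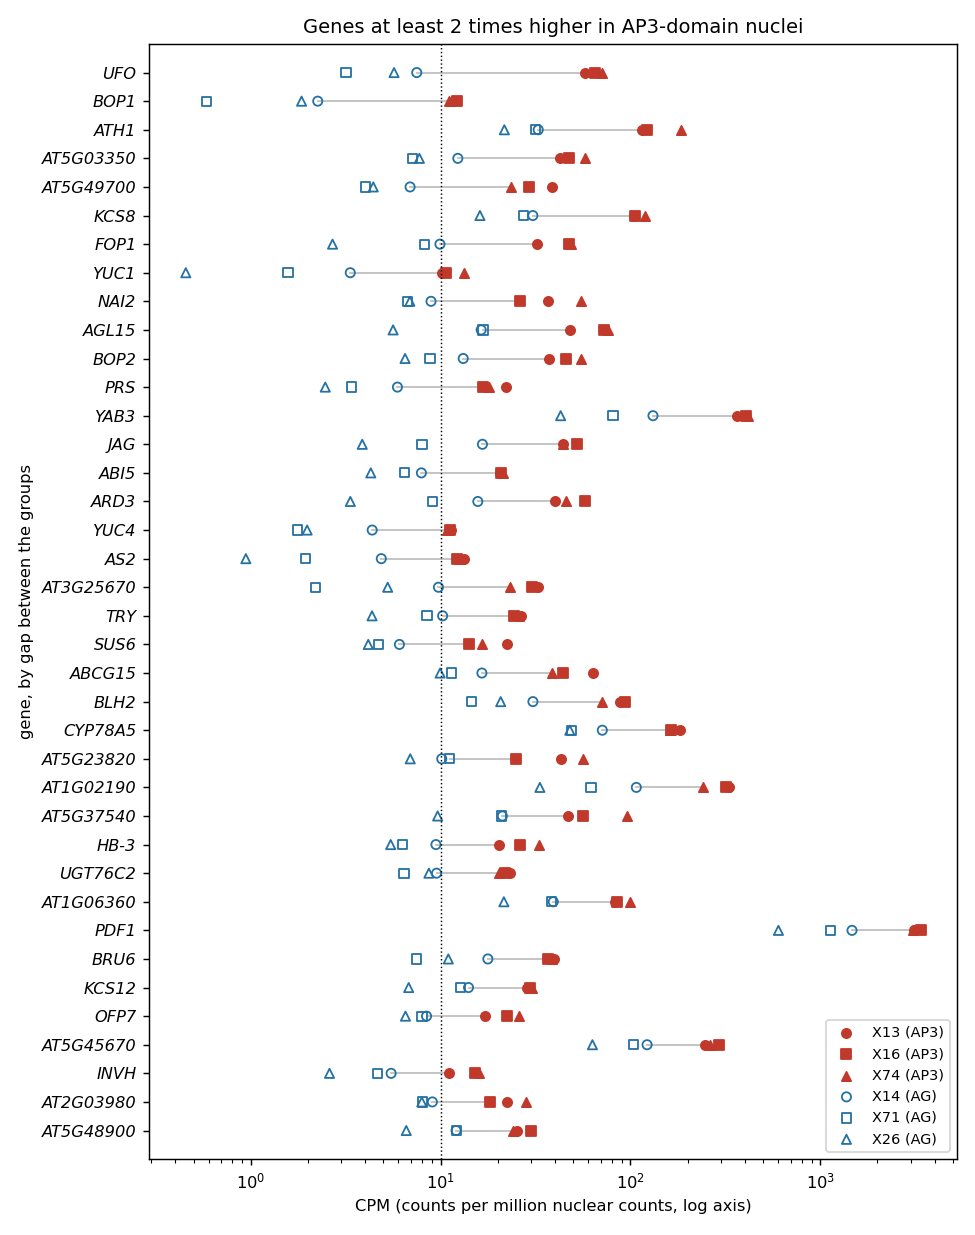
CPM of each of the 38 genes (log axis) in the 3 AP3 libraries (filled, red) and the 3 AG libraries (open, blue), ordered by the gap, with a grey line across it and a dotted line at 10 CPM. UFO has the widest gap (7.66), and the AG libraries are more spread than the AP3 libraries for most genes.

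UFO, the F-box protein that acts with LFY to switch on *AP3*, had the widest gap of the set. It was at 57.4, 65.0 and 70.9 CPM in the AP3 libraries and at 7.49, 3.18 and 5.69 CPM in the AG libraries, a gap of 7.66 and a ratio of means of 11.8. Its log2 fold change in edgeR was 3.61 (standard error 0.31, adjusted p = 0.00041). UFO (AT1G30950) is a gene with 1 exon on chromosome 1 of TAIR10, from 11035992 to 11037508. It was also the member with the lowest adjusted p, and it stayed called in every one of the alternatives tried.

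The boundary genes BOP1 and BOP2 encode related BTB and ankyrin repeat proteins that act at the base of lateral organs. BOP1 was at 11.8, 12.2 and 11.1 CPM in the AP3 libraries and at 2.25, 0.586 and 1.85 CPM in the AG libraries, the second widest gap with 4.94. BOP2 was more abundant, at 37.2, 45.9 and 54.9 CPM against 13.2, 8.79 and 6.50 CPM. The gap of BOP2 was 2.82. BOP2 overlaps another annotated gene, and the counting took no account of strand. Their relatives NPR1, NPR3 and NPR4, which perceive salicylic acid, had log2 fold changes of -0.18, -0.06 and -0.14, and none of them passed edgeR's test (adjusted p = 0.656, 0.924 and 0.821).

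ATH1 and BLH2 (SAW1) are homeodomain proteins of the BEL1-like family, which pair with KNOX proteins. ATH1, known for its part in boundaries and at the base of stamens, was at 116, 123 and 186 CPM in the AP3 libraries and at 32.7, 31.6 and 21.7 CPM in the AG libraries. BLH2, known for limiting KNOX activity in leaf margins, was at 88.3, 93.5 and 70.9 CPM against 30.7, 14.6 and 20.7 CPM. Each AP3 library was at least 2.31 times above each AG library for BLH2, and 3.53 times for ATH1. The family as a whole did not share a direction. Of its 13 genes tested, 4 were called higher in AP3 and 2 lower. Over all 20013 genes tested, edgeR called 1.36% higher and 6.40% lower, the background for each family count given here. BEL1 itself, needed for ovule integuments, had a log2 fold change of -1.90 (edgeR adjusted p = 0.0133). BLH4 (SAW2), the close partner of BLH2, was called higher (log2 fold change 2.03, edgeR adjusted p = 0.0215) but missed the rule with a gap of 1.61.

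The genes of organ shape were led in abundance by YAB3, a YABBY factor of the abaxial side of lateral organs. YAB3 was at 366, 405 and 417 CPM in the AP3 libraries and at 132, 81.1 and 42.9 CPM in the AG libraries. The AP3 libraries lay close together, while the AG libraries differed among themselves more than 3-fold. Its relatives AFO and YAB2 were also called higher, with log2 fold changes of 1.43 and 1.78 (edgeR adjusted p = 0.0132 and 0.0175), but their gaps, 1.82 for YAB2 and less for AFO, stayed under 2. Of the 5 YABBY genes tested, 3 were called higher and 0 lower.

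JAG, a zinc finger protein that promotes the growth of petals and other lateral organs, was at 44.2, 52.1 and 44.4 CPM in the AP3 libraries and at 16.6, 7.99 and 3.87 CPM in the AG libraries. AS2, an adaxial factor of the LOB domain family, was at 13.3, 12.1 and 12.6 CPM against 4.87, 1.94 and 0.943 CPM. Both therefore had AP3 libraries within a narrow range and AG libraries that differed severalfold. AS2 had the highest adjusted p of the 38 genes (0.0295 in edgeR). It lost its call without X13, X16 or X71 in turn and on the 4 libraries X13, X16, X14 and X26, where its adjusted p in edgeR was highest (0.124). JAG lost its call without X16 or X71 and on those 4 libraries (edgeR adjusted p = 0.0645).

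PRS (WOX3) and HB-3 (WOX9, STIMPY) are WUSCHEL-related homeobox genes, the first known for the margins of sepals and other lateral organs and the second for keeping meristem cells dividing. PRS was at 22.2, 16.6 and 18.0 CPM in the AP3 libraries and at 5.93, 3.39 and 2.47 CPM in the AG libraries. HB-3 was at 20.197, 26.2 and 33.0 CPM against 9.46, 6.29 and 5.46 CPM. The gap was 2.81 for PRS and 2.14, near the threshold, for HB-3. Another gene of the family went the other way: WOX4, which maintains the cambium, was at 1.85, 4.57 and 3.20 CPM in the AP3 libraries and at 39.0, 41.7 and 56.6 CPM in the AG libraries (log2 fold change -3.79, edgeR adjusted p = 0.000392). Of the 10 genes of the family that were tested, 2 were called higher, which are the members, and 1 lower, beside 6.40% of all genes.

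The other regulators among the 15 belong to different families. AGL15, a MADS-domain factor best known from embryos, was at 48.2, 72.9 and 76.2 CPM in the AP3 libraries and at 16.4, 16.7 and 5.62 CPM in the AG libraries. AT5G49700, a putative AT-hook DNA-binding protein, was at 38.9, 29.1 and 23.5 CPM against 6.91, 4.04 and 4.42 CPM. ABI5, the bZIP factor of abscisic acid responses in seeds, was at 20.7, 20.7 and 21.3 CPM against 7.93, 6.48 and 4.29 CPM. ABI5 had the tightest AP3 values of all, with a coefficient of variation (SD over mean) of 1.68%. TRY, a single-repeat MYB protein that limits trichome formation, was at 26.4, 24.5 and 25.9 CPM in the AP3 libraries and at 10.3, 8.49 and 4.36 CPM in the AG libraries. OFP7, of the OVATE family of growth repressors, was at 17.1, 22.3 and 25.9 CPM against 8.44, 7.99 and 6.53 CPM. OFP7 lay near the threshold, with a gap of 2.03.

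Promoters of the 38 genes were read to show which known sequence motifs they hold, since these genes were high in the same libraries. The 250 bases before each annotated start were searched on both strands in the RefSeq TAIR10.1 assembly, whose gene starts and ends matched those of the count files for 33043 genes. The CArG box, the binding site of MADS-domain proteins, occurred in 1 of the 38 promoters (2.63%) and in 2.62% of the promoters of all genes tested. That promoter was the one of ATH1, on the minus strand of chromosome 4 from 15918192 to 15918233, with the CArG box in capitals:
ATH1: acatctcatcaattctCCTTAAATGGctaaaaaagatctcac

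CCANTG, the core bound by LFY, occurred in 11 of the 38 promoters (28.9%) and in 21.7% of all those tested. Below, a match in each promoter is in capitals, as CCANTG, or as CANTGG where it lies on the other strand. YUC4 also holds an overlapping match on the other strand, which is not marked. The stretches around this core are shown for AGL15 and for members that shape organs or make growth signals. They are from chromosome 5, 4450997 to 4451034 (AGL15, minus strand), chromosome 2, 12261918 to 12261955 (PRS, plus strand), chromosome 4, 75583 to 75620 (YAB3, minus strand), chromosome 5, 3613743 to 3613780 (YUC4, minus strand) and chromosome 1, 4704796 to 4704833 (CYP78A5, minus strand):
AGL15: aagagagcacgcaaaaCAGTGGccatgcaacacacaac
PRS: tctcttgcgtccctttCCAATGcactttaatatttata
YAB3: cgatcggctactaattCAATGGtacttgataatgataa
YUC4: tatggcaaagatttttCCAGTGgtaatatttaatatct
CYP78A5: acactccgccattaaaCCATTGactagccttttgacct

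The L1 box, TAAATGCA or TAAATGTA, is known from promoters active in the outer cell layer. It occurred in 2 of the 38 promoters (5.26%) and in 4.51% of all those tested. The matches were in AT1G06360 (minus strand of chromosome 1, 1940523 to 1940562) and OFP7 (plus strand of chromosome 2, 8026902 to 8026941), shown with the match in capitals:
AT1G06360: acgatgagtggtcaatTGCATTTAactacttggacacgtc
OFP7: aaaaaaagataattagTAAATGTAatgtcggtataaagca

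CACGTG, the G-box bound by bZIP and bHLH proteins, occurred in 4 of the 38 promoters (10.5%) and in 7.32% of all those tested. ABI5 held 3 copies, in capitals in its 250 bases on the minus strand of chromosome 2, from 15207637 to 15207886:
ABI5: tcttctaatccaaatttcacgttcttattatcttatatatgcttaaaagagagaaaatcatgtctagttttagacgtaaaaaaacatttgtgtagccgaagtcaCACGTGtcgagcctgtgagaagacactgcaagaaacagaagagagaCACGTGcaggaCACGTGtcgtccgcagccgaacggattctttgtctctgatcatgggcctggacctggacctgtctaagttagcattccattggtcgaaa

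No single motif was held by most of the promoters except TATAAA, which was in 20 of 38 (52.6%) and in 45.2% of all promoters tested. TTTCCCGC or TTTGGCGC, the sites of E2F, occurred in 0 of 38 (1.04% of all), AAACCCTA in 1 (3.86% of all) and TGGGCC or TGGGCT in 8 (21.1%, and 22.7% of all). CCANTG can overlap itself on the other strand, as in CCAGTGG, and each promoter was counted once.

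The hormone and growth genes held a pair of auxin synthesis genes. YUC1 and YUC4 encode flavin monooxygenases that make auxin in young floral organs. YUC1 was at 10.2, 10.6 and 13.3 CPM in the AP3 libraries and at 3.35, 1.57 and 0.455 CPM in the AG libraries. YUC4 was at 11.4, 11.2 and 10.9 CPM against 4.36, 1.76 and 1.98 CPM. Both lay just above the floor of 10 CPM. YUC1 lost its edgeR call without X13, X16 or X71, and YUC4 without X16. Both also lost it on the 4 libraries X13, X16, X14 and X26, with their highest adjusted p in edgeR (0.124 for YUC1 and 0.0582 for YUC4). The other auxin synthesis genes of the family moved in the opposite direction where they were called. YUC6 was at 3.46, 7.76 and 6.88 CPM in the AP3 libraries and at 16.4, 18.8 and 17.56 CPM in the AG libraries (log2 fold change -1.51, edgeR adjusted p = 0.0142), and YUC2 had a log2 fold change of -3.29 (edgeR adjusted p = 0.0159).

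BRU6 (GH3.2), an enzyme that joins auxin to amino acids, was at 39.7, 36.8 and 38.9 CPM in the AP3 libraries and at 17.7, 7.44 and 11.0 CPM in the AG libraries. Among the 8 genes of the GH3 family that were tested, 3 were called higher and 3 lower. GH3.3 missed the rule narrowly with a gap of 1.96, while DFL1 and GH3.9 had log2 fold changes of -2.28 and -2.29 (edgeR adjusted p = 0.00564 and 0.00328).

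CYP78A5 (KLUH), a cytochrome P450 that prolongs organ growth, was at 183, 165 and 162 CPM in the AP3 libraries and at 71.1, 49.0 and 48.0 CPM in the AG libraries. It was the 1 gene of the 5 tested in its subfamily that was called, and CYP78A7 had a log2 fold change of -0.93 (edgeR adjusted p = 0.108). UGT76C2, which inactivates cytokinins by adding glucose, was at 23.2, 21.8 and 20.3 CPM in the AP3 libraries and at 9.53, 6.42 and 8.68 CPM in the AG libraries. Its tandem relative UGT76C1 had a log2 fold change of -0.19 (edgeR adjusted p = 0.878).

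**Figure D2:**
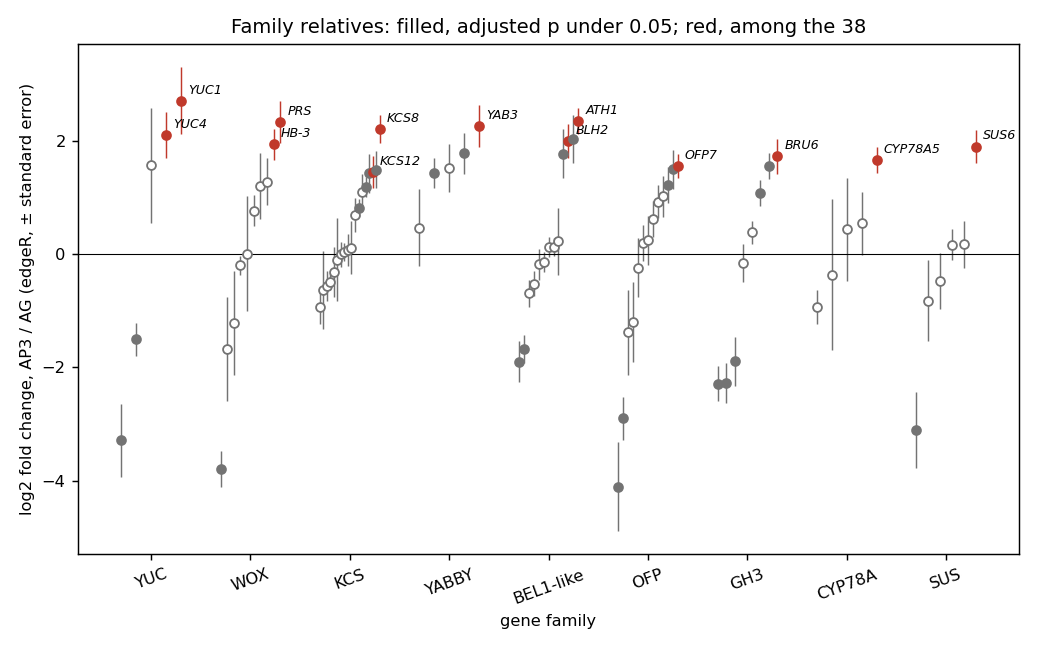
Log2 fold change of AP3 over AG from edgeR (± standard error) for the tested genes of 9 families that hold members of the set. Members are red and other genes grey, filled where the adjusted p was under 0.05, and called genes lie on both sides of 0 in the YUC, WOX, BEL1-like, OFP, GH3 and SUS families.

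The epidermal, wax and lipid genes included the most abundant member. PDF1, a proline-rich protein of the outer cell layer (L1), was at 3119, 3382 and 3091 CPM in the AP3 libraries and at 1470, 1130 and 602 CPM in the AG libraries. Per length it had a mean of 2026 CPM per kb in the AP3 libraries, followed by YAB3 with 131 CPM per kb, while SUS6 had the lowest level with 3.83 CPM per kb. PDF1 left the set when TMM or DESeq2 size factors replaced the library total, and its edgeR call (adjusted p = 0.0232) was lost without X16 or X71 and on the 4 libraries X13, X16, X14 and X26 (adjusted p = 0.111).

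KCS8 and KCS12 are 3-ketoacyl-CoA synthases, the enzymes that elongate very long chain fatty acids for waxes and other lipids. KCS8 was at 104, 106 and 119 CPM in the AP3 libraries and at 30.6, 27.3 and 16.1 CPM in the AG libraries. KCS12 was at 28.6, 29.6 and 30.1 CPM against 14.04, 12.7 and 6.79 CPM. KCS8 thus had a wide gap (3.39) and KCS12 one near the threshold (2.04). KCS12 lost its edgeR call without X16 and on the 4 libraries X13, X16, X14 and X26. Of the 18 family genes tested, 6 were called higher and 0 lower, the others being KCS13, KCS14, KCS19 and KCS20 with log2 fold changes of 0.82 to 1.49. The family median was 0.09. All AP3 libraries were above all AG libraries in 7 of the 18, the 2 members included, beside 7.88% of all genes tested. The reverse held in 2, KCS4 and KCS6, beside 3103 of all 20013 genes tested.

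FOP1, a wax ester synthase whose loss folds the petals, was at 32.3, 47.7 and 48.7 CPM in the AP3 libraries and at 9.93, 8.24 and 2.698 CPM in the AG libraries. AT1G02190, of the fatty acid hydroxylase superfamily, was at 331, 320 and 240 CPM against 107, 62.0 and 33.4 CPM, and its edgeR call was lost without X71 (adjusted p = 0.0532). AT1G06360, a fatty acid desaturase and 1 of the 2 members with an L1 box, was at 83.1, 84.8 and 99.5 CPM against 39.2, 38.4 and 21.6 CPM. Of these enzymes FOP1 had the widest gap (3.25).

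The lipases of the GDSL type were AT5G45670, at 247, 295 and 263 CPM in the AP3 libraries and 122, 104 and 63.1 CPM in the AG libraries, and AT2G03980, at 22.4, 18.2 and 28.1 CPM against 9.06, 8.02 and 7.97 CPM. ABCG15, a transporter of the ABC-G type, was at 63.4, 44.1 and 38.5 CPM against 16.5, 11.4 and 9.95 CPM. AT5G23820, with a domain for lipid recognition, was at 43.1, 25.1 and 56.2 CPM in the AP3 libraries and at 10.1, 11.2 and 6.92 CPM in the AG libraries. It was 1 of the 3 members, with NAI2 and AT5G37540, in which the AP3 libraries themselves differed by 2 times or more.

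The remaining members have more varied roles. SUS6, a sucrose synthase, was at 22.3, 14.2 and 16.4 CPM in the AP3 libraries and at 6.07, 4.69 and 4.16 CPM in the AG libraries, while its relative SUS5 had a log2 fold change of -3.11 (edgeR adjusted p = 0.023). INVH, an invertase, was at 11.1, 15.2 and 15.9 CPM against 5.49, 4.66 and 2.60 CPM, with a gap of 2.01. AT5G48900, of the pectin lyase-like proteins of the cell wall, was the member nearest the threshold, at 25.2, 30.1 and 24.2 CPM against 12.1, 12.1 and 6.60 CPM. AT5G03350, a legume lectin family protein, was among the 4 widest gaps of the set with 3.44, at 42.4, 47.3 and 57.7 CPM in the AP3 libraries and 12.3, 7.13 and 7.74 CPM in the AG libraries. NAI2, a component of ER bodies, was at 36.9, 26.1 and 54.9 CPM against 8.91, 6.73 and 6.89 CPM. The gap of NAI2 was 2.93. ARD3, annotated as an acireductone dioxygenase of methionine salvage, was at 40.1, 57.5 and 46.0 CPM against 15.7, 9.07 and 3.35 CPM. AT3G25670, a leucine-rich repeat protein, was at 32.7, 30.2 and 23.3 CPM against 9.75, 2.19 and 5.27 CPM. AT5G37540, an aspartyl protease, was at 47.2, 56.2 and 96.1 CPM against 21.2, 20.9 and 9.66 CPM, with X74 well above the other AP3 libraries. Without X16 the edgeR calls of ARD3, AT3G25670, INVH and AT5G48900 were lost. The call was also lost for ARD3 without X71 and for AT3G25670 without X13 or X26. On the 4 libraries X13, X16, X14 and X26 it was lost for ARD3 and INVH.

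**Figure D3:**
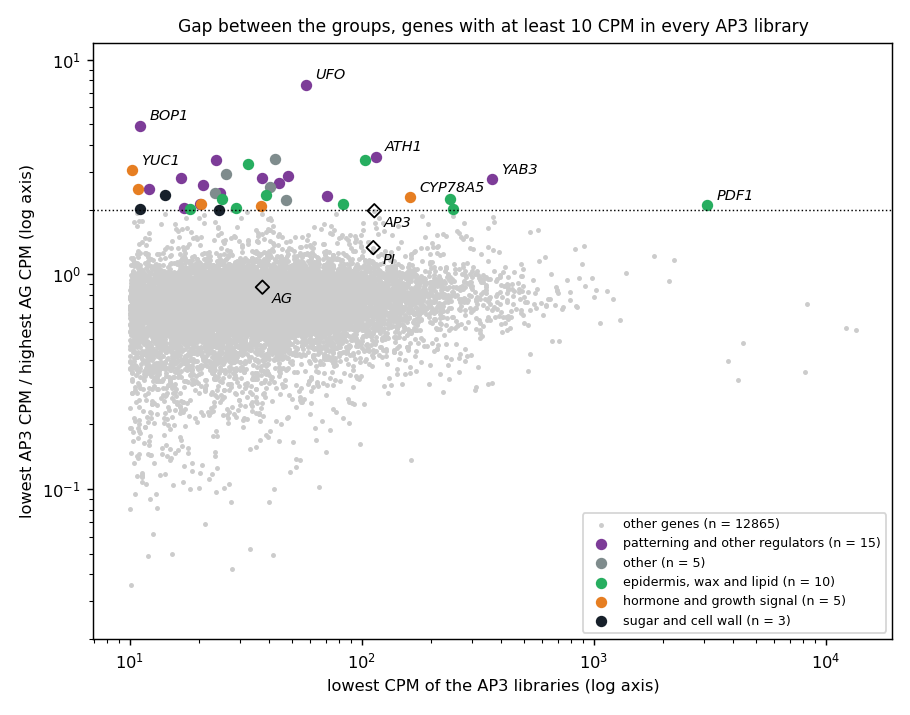
Gap between the groups (lowest AP3 CPM over highest AG CPM, log axis) against the lowest AP3 CPM (log axis) for all genes with at least 10 CPM in every AP3 library. The 38 genes are coloured by role above the dotted line at 2, and diamonds mark AP3 (1.98), PI (1.33) and AG (0.87).

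The rule drew its line through a continuous range. Just inside were AT5G48900, AT2G03980 and INVH, with gaps of 2.00, 2.01 and 2.01. Just outside were AT4G08910 (1.99), the *AP3* gene itself (1.98) and DRNL (1.97), a factor of organ founder cells. At the floor, YUC1, YUC4 and INVH were the lowest members, with 10.2, 10.9 and 11.1 CPM in their lowest AP3 library, and TASIR-ARF, PUM9 and AT4G06220 were left out with 9.22, 7.38 and 6.57 CPM. RBE, a petal gene named because its gap of 6.02 would otherwise place it next to UFO, was also left out, with 5.04, 7.89 and 9.45 CPM in the AP3 libraries and 0.837, 0.339 and 0.585 CPM in the AG libraries.

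In edgeR's test across 20013 genes, 1.36% of genes were called higher in AP3 (273 genes, adjusted p under 0.05) and 6.40% lower (1281 genes). All 38 members were among the 273, with log2 fold changes of 1.43 to 3.61 and a median of 2.14, against a median of 0.03 over all genes. DESeq2 called 2.94% of genes higher, the 38 included. On the 4 libraries X13, X16, X14 and X26 alone, edgeR called 0.384% of 19508 genes higher, among them 30 of the 38. Since the same libraries chose the members, nothing is read from these counts. A lowest AP3 value above the highest AG value, by any amount, was seen in 7.88% of all genes tested and in 9.18% of the 12903 abundant genes, and the rule itself took 0.295% of them. The mirror rule, with AP3 and AG exchanged, took 299 genes.

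Libraries that did not take part in the choice gave a description of how far it carried over. Applied to X13, X16, X14 and X26 alone, the rule took 52 genes. In the pair set aside, 50 of the 52 (96.2%) were at least 2 times higher in X74 than in X71. The same held in 2.53% of 13066 genes with at least 10 CPM in X13 and X16. All 52 were higher in X74 by any amount, as were 57.6% of those 13066 genes. The 2 genes under 2 times were KCS13 (1.68) and AT5G00395 (1.89). All 38 members were among the 52, and the full rule had required at least 2 times of each of them. The share is therefore a description and not evidence for the set. Besides the 38, this choice held ERL1 and ERL2, receptor kinases of the ERECTA family, with 119 and 278 CPM in X74 against 36.6 and 130 CPM in X71. One AP3 library against one AG library has no replicate check, and X74 and X71 are also the libraries with reads on the most genes. With the other choices of a pair the share was lower, from 30.3% for X13 and X14 to 89.7% for X13 and X26.

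**Figure D4:**
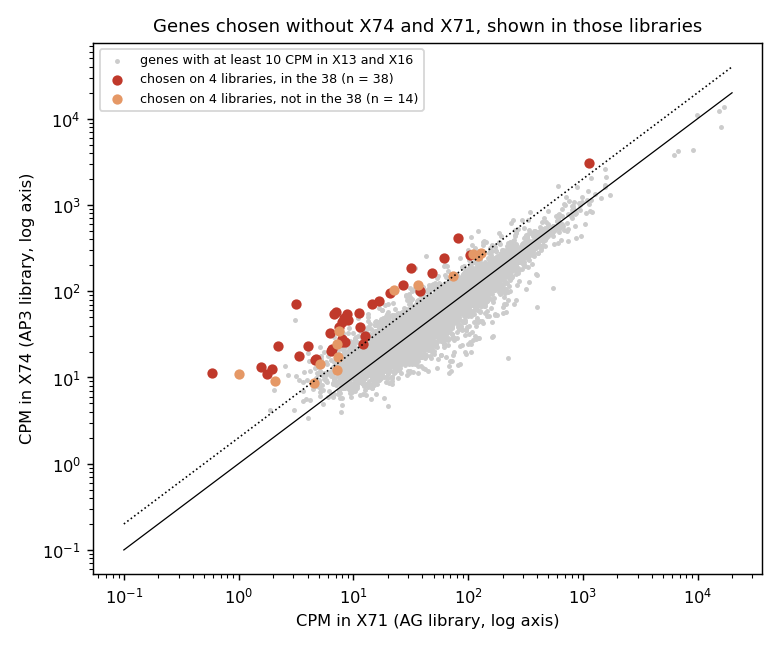
CPM in X74 (AP3) against X71 (AG), both on log axes, for the 52 genes chosen on the other 4 libraries and, in grey, for genes with at least 10 CPM in X13 and X16. The solid line marks equal values and the dotted line 2 times, above which lie 50 of the 52 genes.

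The spread within the groups is a description too, since the rule acts on the lowest AP3 and the highest AG value. It was uneven between the groups. The AP3 libraries had a median coefficient of variation of 15.1% over the 38 genes, near the 15.5% of all abundant genes. The AG libraries had 35.3%, against 16.2% for all abundant genes. In 31 of the 38 members the AG libraries were the more variable group, against 50.7% of abundant genes. In 21 members the highest AG library was at least 2 times the lowest. The cause of this spread was not tested.

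The AG libraries also had an order. X14 was the highest AG library for 35 of the 38 members, against 22.6% of all genes tested, the exceptions being AGL15, AT5G23820 and AT5G48900, where X71 was highest. X26 was the lowest for 28 members, against 39.1% of all genes tested. Relative to its own mean in the AP3 libraries, a member stood at a median of 34.9% in X14, 22.9% in X71 and 17.3% in X26. The order X14, X71, X26 held in 25 of the 38 genes and in 14.5% of all genes tested. *AP3* and its partner *PI* fell in the same order. The gap is therefore set by X14 for nearly all members, and without X14 the rule took 102 genes in place of 38.

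**Figure D5:**
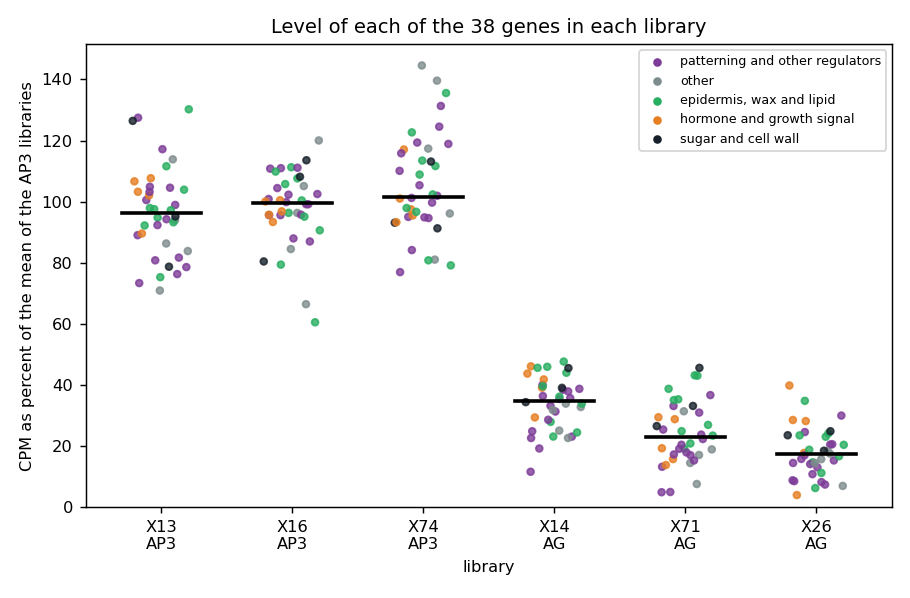
CPM of each of the 38 genes in each library as a percentage of its mean over the AP3 libraries, coloured by role, with a black bar at the median. The AG libraries fall from a median of 34.9% in X14 to 22.9% in X71 and 17.3% in X26.

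Markers of other tissues were summed in each library. The 20 vascular genes, such as the phloem regulator APL and the cambium receptor kinase PXY, had a summed level of 376 to 513 CPM in the AP3 libraries and of 846, 882 and 1092 CPM in X14, X71 and X26. Of the 19 tested, 13 were called lower in AP3 and 0 higher (edgeR, median log2 fold change -2.37), beside 6.40% and 1.36% of all genes tested. None of the 20 was at 0 in all libraries. The xylem genes of the list did not move as one. IRX1 and VND6 were at 0.114 to 0.612 and 0.0966 to 0.222 CPM in the AP3 libraries and were called lower, while the cellulose synthase gene IRX5 was at 21.5, 23.2 and 33.2 CPM in the AP3 libraries and at 20.08, 26.6 and 32.0 CPM in the AG libraries (edgeR adjusted p = 0.961), and IRX3 was not called either (edgeR adjusted p = 0.688). The summed level of the 38 members had the opposite order in the AG libraries, with 2332 CPM in X14, 1750 CPM in X71 and 1024 CPM in X26. Much of that sum was PDF1, and without it the level was 862, 620 and 422 CPM. Single vascular genes did not all follow the order of their sum. In X14, X71 and X26, APL was at 34.4, 33.9 and 34.6 CPM and TMO6 at 85.2, 107 and 64.5 CPM. LHW, which was not called (edgeR adjusted p = 0.951), was at 175, 173 and 254 CPM. The part of vascular nuclei in the members' values was not tested.

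The 12 epidermal markers included PDF1. Without it their summed level was 2255 to 2724 CPM in the AP3 libraries and 1413 to 1939 CPM in the AG libraries. ATML1, the homeodomain regulator of the outer layer, and HTH, a cuticle gene, were called higher in AP3 (log2 fold changes 1.09 and 1.54, edgeR adjusted p = 0.0369 and 0.0133), and the other 9 genes were not called. Of the 11 genes without PDF1, 5 had all AP3 libraries above all AG libraries, beside 7.88% of all genes tested. In 1, KCS6, it was the reverse, with 54.8, 56.8 and 75.6 CPM against 86.3, 97.3 and 87.6 CPM. The reverse held in 3103 of all 20013 genes tested. CER1 and CER5 had log2 fold changes of 0.04 and -0.02. The part of a larger epidermal share in the values of PDF1, the KCS genes and the lipases was not tested. Dividing-cell markers summed to 5378 to 6434 CPM in the AP3 libraries and 3846 to 4656 CPM in the AG libraries. Of these markers, 3 of 14 were called higher and 0 lower, beside 1.36% and 6.40% of all genes tested. The sum was dominated by CDC20.1 (2229, 2469 and 2611 CPM against 1902, 1553 and 1829 CPM) and CDC20.2 (1822, 2014 and 2072 CPM against 1463, 1172 and 1501 CPM). Neither of these genes was called (edgeR adjusted p = 0.261 and 0.206). Photosynthesis genes had 0 of 13 called by edgeR (1 lower at an unadjusted p under 0.05, and 1 lower in DESeq2), and stress genes 0 of 13 (2 lower by each of these).

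Lists of floral genes placed the members among their neighbours in function. The 1.36% of all genes tested that edgeR called higher, and the 6.40% called lower, are the background for each list. The counts of calls include UFO, JAG, AS2, BOP1 and BOP2, which the rule chose on this same contrast. Of the 11 B-class genes and floral activators, 8 were called higher in AP3 and 0 lower (median log2 fold change 1.50), but UFO alone met the rule. LFY, with which UFO acts, was at 102, 121 and 99.7 CPM in the AP3 libraries and at 65.2, 45.2 and 37.3 CPM in the AG libraries, a gap of 1.53. Of 14 petal and stamen genes tested, 5 were called higher, among them JAG and AS2 of the 38, and RBE, PTL and TCP4. Of 11 boundary genes 4 were called higher, which were BOP1, BOP2, LAS and RAX1. Of the 9 carpel and meristem centre genes tested, 0 were called in either direction by edgeR, while 4 were higher and 2 lower at an unadjusted p under 0.05, and DESeq2 called 2 higher and 1 lower.

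In structure, their median gene length was 2314 bp and their median exon number 4, against 2680 bp and 6 for abundant genes. They had 1 exon in 7 of 38 cases, such as UFO, KCS8 and OFP7, against 8.00% of abundant genes. Their GC content was 38.2%, against 38.8%. They lay on all 5 chromosomes, with 7, 10, 5, 5 and 11 genes from chromosome 1 to 5. The closest pair was PRS and KCS12, 10872 bp apart on chromosome 2 with 6 genes between them. Of the 61 genes flanking a member within 2 positions that reached 10 CPM in every AP3 library, 11 had all AP3 libraries above all AG libraries, beside 9.18% of all abundant genes, among them HDG11, an epidermal homeodomain gene next to SUS6. AT5G03350 and AT5G49700, like BOP2, overlap another annotated gene, and their counts are less certain for it.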

How the data were processed

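Nuclear RNA of 3 AP3 and 3 AG libraries was amplified with SMART-Seq v4. Reads were trimmed with Trimmomatic and mapped uniquely to TAIR10 with STAR 2.7.0b. The authors deposited unnormalized counts of read pairs per gene, and the file headers name featureCounts 1.6.0 over whole genes, introns included, without strand, so unspliced nuclear RNA is counted. They also deposited log2-like variance stabilized values from DESeq2 1.24.0 for X13, X16, X14 and X26, in which each of the 38 members had both AP3 above both AG values. No column was left unmapped (0). Chloroplast and mitochondrial genes were dropped. Tested genes were the 20013 whose count passed 10 in 2 libraries or more.

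Groups were compared in R 4.3.3 with the quasi-likelihood F test of edgeR 4.0.16 (TMM, no covariate, Benjamini-Hochberg adjustment, threshold 0.05), checked on simulated data, with standard errors derived from its F statistic. DESeq2 1.42.0 was an alternative. Each library held 28808948 counts or more, and the smallest count of a member was 14. Replicates differed by more than counting error (chi-square per degree of freedom 41.1 to 185), so each library counted as 1 replicate.

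The members and lists were chosen with earlier results of these data known, and roles and families after the members were seen. Named genes were those with the 10 widest gaps, the 10 highest levels, the regulators, hormone genes and transporters, those on a list, those nearest a threshold, and pairs that share a family or lie close together. Gene names came from RefSeq, which matched all 33056 nuclear IDs. FDH in the epidermal list stands for KCS10, already on it, CAB3 is LHCB1.2, and HTR2 was not matched.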

Additional observations from a re-analysis of the deposited data

How the results depend on the processing

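The number of genes meeting the rule stayed within 1.5 times of 38 with organelle counts kept (38), TMM (38, of which 33 were members), DESeq2 size factors (41), floors of 5 and 20 CPM (47 and 29) and the 4 libraries of the deposited table (52). It moved to 137 with no floor, 122 at a ratio of 1.5, 8 at a ratio of 3, and 273 with a ratio of 2 on the group means, an alternative chosen after seeing the data. Leaving out 1 library gave 39 to 102 genes, with 75 without X13 and 102 without X14. TMM left out UGT76C2, PDF1, KCS12, AT5G45670 and AT5G48900 and took in AP3, AT4G30020, MYB37, AT5G47600 and AT5G66710. The median log2 difference of all genes was -0.03 for CPM and 0.03 for TMM and for DESeq2 size factors.

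Calls of higher genes went from 273 to 588 with DESeq2, 444 with no filter beyond 1 read and 75 on the 4 libraries of the table (0.384%). Leaving out 1 library gave 86 to 276 calls, with 177 without X13, 86 without X16, 93 without X71 and 170 without X26. Members called numbered 30 on the 4 libraries and 28 to 38 with 1 library left out (28 without X16), and 27 of them were called under all 13 alternatives. Over these, 466 of the members' calls held and 28 lost the threshold, and 0 changed direction. The cause was not tested. The share of genes at least 2 times higher in the pair set aside was 30.3% (X13 and X14), 68.4% (X13 and X71) and 59.8% (X16 and X14). It was 79.6% (X16 and X71), 82.5% (X16 and X26) and 45.3% (X74 and X14). Of the 52 genes chosen without X74 and X71, 100% were higher by any amount in X74 than in X71. That held in 57.6% of the 13066 genes with at least 10 CPM in X13 and X16. No paired analysis was possible because the labels give the libraries no replicate numbers that pair them.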
